A study of Arabidopsis thaliana with 21 samples.

Results

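The 8 microRNA genes MIR156A to MIR156H and the mRNAs of SPL9 and SPL15, targets of the microRNA they encode, were followed in dxo1 mutants of Arabidopsis thaliana. These 10 genes were taken by gene identifier. The 8 MIR156 genes were among 32420 genes of the small RNA tables, and SPL9 and SPL15 were among 33602 genes of the mRNA table. By identifier, they were MIR156A (AT2G25095, chromosome 2), MIR156B (AT4G30972, chromosome 4), MIR156C (AT4G31877, chromosome 4), MIR156D (AT5G10945, chromosome 5), MIR156E (AT5G11977, chromosome 5), MIR156F (AT5G26147, chromosome 5), MIR156G (AT2G19425, chromosome 2), MIR156H (AT5G55835, chromosome 5), SPL9 (AT2G42200, chromosome 2) and SPL15 (AT3G57920, chromosome 3). In the RefSeq annotation the 8 MIR156 genes are microRNA genes, and 6 of the 10 members overlap another gene. MIR156B, MIR156D, MIR156F and MIR156G are among these. SPL9 overlaps AT2G09340, annotated as the microRNA gene MIR156j, which was not analysed here, and SPL15 overlaps the protein-coding gene AT3G57910.

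MicroRNA miR156 guides Argonaute proteins to the mRNAs of SPL transcription factors, which lowers SPL activity by cleavage and by translational repression. Its level is high in young shoots and declines with age, and the SPL factors released by that decline promote adult leaf traits and flowering. The precursor hairpin is cut by DCL1, which yields a mature strand shared by most MIR156 genes and a passenger strand that differs more between them. The principal mature form is shorter than the shortest size class measured here, so the reads described below are longer forms and passenger strands, and the tables do not say which arm a read came from. DXO1 takes off the NAD cap that some transcripts carry and can also degrade RNA from its end, and DCL4 is the Dicer that makes most 21-nt small interfering RNAs.

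Small RNAs were sequenced from dxo1-2dcl4-2, dxo1-2, dcl4-2 and Col-0 plants 10 days old, and mRNA from dxo1-1, dxo1-2 and Col-0 plants 16 days old, with 3 libraries per line and 21 in all (12 for small RNA, 9 for mRNA). Col-0 is the wild type, dxo1-1 and dxo1-2 are separate mutant lines of DXO1, dcl4-2 is a mutant line of DCL4, and dxo1-2dcl4-2 carries both mutations; what kind of mutation each line carries is not stated in the sources used here. Plants were grown in long days on plates with sucrose and then on soil. The labels name rosette leaves as the tissue, while the small RNA protocol names whole seedlings. The 2 assays therefore differ in age, and the dxo1-1 line was measured for mRNA but not for small RNA, so levels are not compared across assays.

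The 3 small RNA size classes held 173804 to 1403794 reads per library. In the libraries labelled dxo1-1 the mRNA of DXO1 (AT4G17620) stood at 192.71, 195.46 and 248.56 FPKM, a level scaled to gene length and library size, in dxo1-2 at 6.67, 5.88 and 7.64 FPKM, and in Col-0 at 10.04, 11.97 and 10.77 FPKM. The level thus lay above that of Col-0 in all 3 libraries labelled dxo1-1 and below it in all 3 of dxo1-2, and every direction given for dxo1-1 rests on those labels. The 4 leaf markers RBCS1A, RCA, LHCB1.3 and CA1 were present in every mRNA library, with a summed level of 47750 to 53667 FPKM in libraries labelled dxo1-1, 49983 to 51137 FPKM in dxo1-2 and 80076 to 85139 FPKM in Col-0. The 4 root markers summed to 378.0 to 386 FPKM in dxo1-1, 298 to 333 FPKM in dxo1-2 and 457 to 496 FPKM in Col-0, sums set largely by PYK10, a beta-glucosidase at 293 to 490.2 FPKM in every library. Of the other root markers, RHD6, which sets root hair cell fate, was at 0 in every library of both mutants and at 0.05 to 0.11 FPKM in Col-0, while PHT1;4, a phosphate transporter, stood at 10.91 to 11.41 FPKM in dxo1-1, 5.69 to 6.64 FPKM in dxo1-2 and 1.5 to 1.66 FPKM in Col-0. The remaining root marker, TIP2;3, differed from Col-0 by -0.87 in dxo1-1 and by -2.06 in dxo1-2 on the log2 scale. The 6 shoot meristem and flower markers summed to 3.51 to 4.15 FPKM in dxo1-1, 3.0 to 4.18 FPKM in dxo1-2 and 0.87 to 1.13 FPKM in Col-0. STM, a meristem homeobox gene, carried this difference, with 3.03 to 4.0 FPKM in dxo1-1, 2.69 to 4.01 FPKM in dxo1-2 and 0.4 to 1.04 FPKM in Col-0, whereas WUS, AP1, AP3, AG and LFY were at no more than 0.43 FPKM in any library, and the 3 seed markers summed to at most 0.18 FPKM. Nothing in the labels says that replicates came from separate plantings, and p-values therefore reflect the spread among these libraries, which may be technical. In such bulk tissue, fewer cells of a type and less RNA per cell cannot be told apart.

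The hairpins did not all give reads of the same length. Reads of 22 nt made up 72.1% ± 8.68 of the MIR156 reads in dxo1-2dcl4-2, 83.2% ± 2.05 in dxo1-2, 75.1% ± 3.27 in dcl4-2 and 78.7% ± 5.64 in Col-0 (SD, n = 3 each). Over all genes, the 22-nt share was 57.2% ± 0.491 in dxo1-2dcl4-2, 22.1% ± 0.676 in dxo1-2, 30.8% ± 1.32 in dcl4-2 and 22.8% ± 1.32 in Col-0. The 22-nt share was thus high over all 4 lines for the MIR156 genes, while over all genes dxo1-2dcl4-2 stood far above the other lines. MIR156A and MIR156C together gave 90.1% to 98.7% of the 22-nt MIR156 reads of any library. By contrast, MIR156D and MIR156F gave mostly 21-nt reads, 84.3% in dxo1-2dcl4-2, 94.3% in dxo1-2, 92.3% in dcl4-2 and 88.2% in Col-0 for MIR156D, and 92.6%, 91.3%, 95.1% and 95.3% in the same lines for MIR156F, with reads pooled over the 3 libraries of a line. Among rows with reads, no 2 MIR156 rows held identical values in all 12 libraries at 21 nt or at 22 nt, where MIR156G and MIR156H had none. At 24 nt 3 pairs were identical, among MIR156E, MIR156F and MIR156G, each with 1 read in all. MIR156A and MIR156C held equal values in 1 library at 21 nt, and reads that match several hairpins cannot be assigned with certainty.

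MIR156F had the largest difference between dxo1-2 and Col-0 among the MIR156 rows tested, and it lay in the 21-nt class. Its level was 73.9, 167 and 171 normalized reads (the authors' scaling) in dxo1-2dcl4-2, 9.78, 15.8 and 21.2 in dxo1-2, 157, 114 and 118 in dcl4-2, and 115, 108 and 84.9 in Col-0. The highest dxo1-2 library lay below the lowest library of each of the other lines, and on this scale these other lines overlapped one another. Per 1000000 reads of the 3 classes, MIR156F had 74.1 to 185 in dxo1-2dcl4-2 and 25.5 to 62.6 in dxo1-2. It had 359 to 507 in dcl4-2 and 257 to 483 in Col-0. Counted so, dxo1-2 was still lowest, and dxo1-2dcl4-2 lay below dcl4-2 and Col-0 in every library. The values of dxo1-2 rest on 13, 15 and 56 reads, against 84, 150 and 87 reads in Col-0. MIR156F 21-nt reads fell by 2.73 on the log2 scale in dxo1-2 against Col-0 (SE 0.46, limma adjusted p = 0.0029), with means of 15.6 ± 5.69 in dxo1-2 and 103 ± 15.7 in Col-0 (SD, n = 3 each). The fall passed in all 20 alternatives tried, with adjusted p between 5.53e-08 and 0.0433. Of the 6 MIR156 genes tested in this class, 1 passed, and 0.938% of all 7892 genes tested passed in either direction, or 0.19% as lower.

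**Figure D1:**
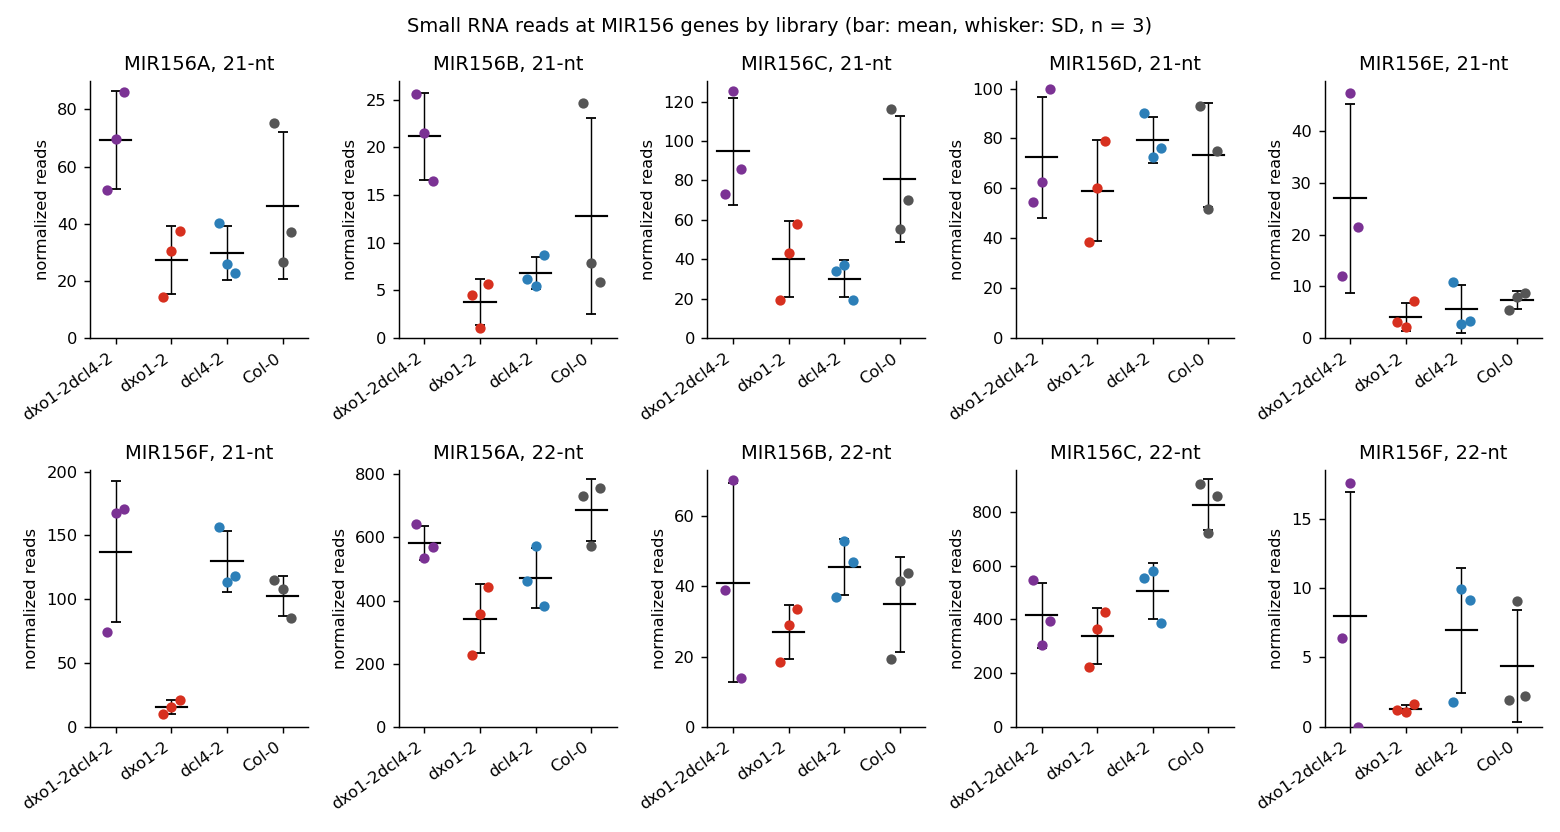
Normalized reads of 6 MIR156 genes in the 21-nt class and of 4 in the 22-nt class, with 1 point per library, a bar at the mean of the 3 libraries and a whisker of 1 SD, for dxo1-2dcl4-2, dxo1-2, dcl4-2 and Col-0 from left to right. The 3 dxo1-2 libraries of MIR156F lie between 9.78 and 21.2 normalized reads, below all libraries of the other lines, and the dxo1-2 libraries of MIR156A and MIR156C at 22 nt lie below those of Col-0.

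The fall of MIR156F was also seen relative to its sister genes, a measure that no library scaling can move. MIR156F supplied 25.3%, 33.8% and 34.9% of the 21-nt MIR156 reads in dxo1-2dcl4-2, 10.9%, 10.3% and 10.1% in dxo1-2, 46.3%, 43.9% and 47.6% in dcl4-2, and 26.8%, 41.8% and 29.9% in Col-0. The shares of dxo1-2 lay below those of every other line, and those of dcl4-2 above every other line. Among single libraries, the highest upper bound of a 95% exact binomial interval in dxo1-2 was 18.0%, and the lowest lower bound in Col-0 was 21.9%; these bounds cover counting error only. In mean terms the share was 31.3% ± 5.24 in dxo1-2dcl4-2, 10.5% ± 0.405 in dxo1-2, 45.9% ± 1.87 in dcl4-2 and 32.8% ± 7.93 in Col-0 (SD, n = 3 each).

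**Figure D2:**
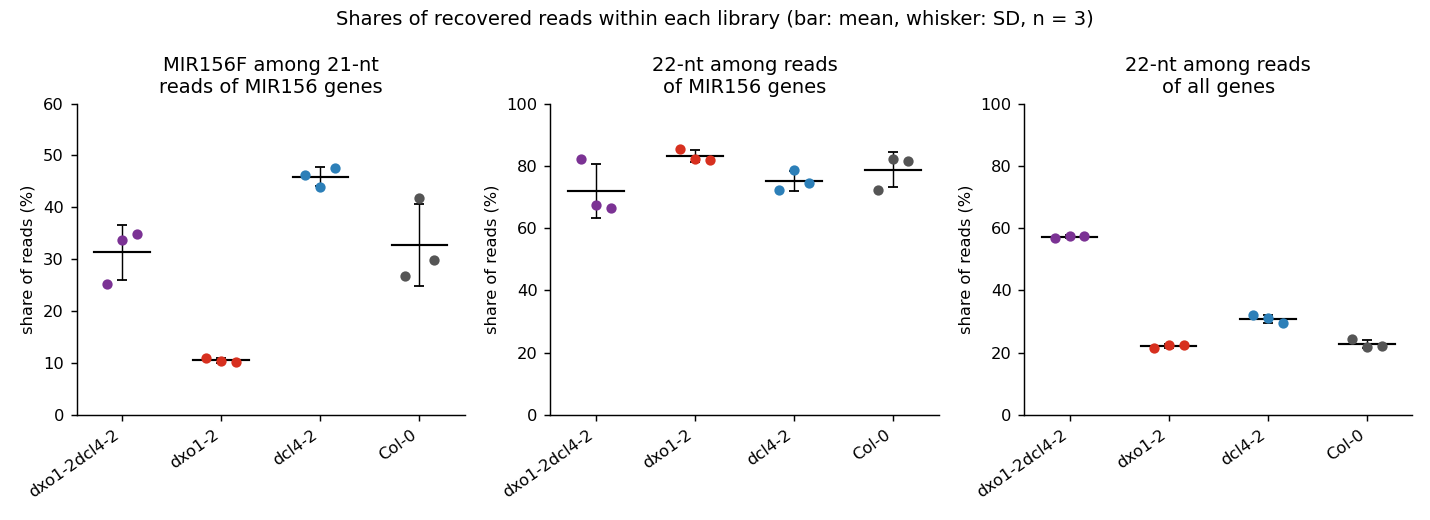
Shares in percent per library, with 1 point per library and lines ordered dxo1-2dcl4-2, dxo1-2, dcl4-2 and Col-0: MIR156F among 21-nt MIR156 reads, 22-nt reads among MIR156 reads, and 22-nt reads among the reads of all genes. MIR156F holds 10.1% to 10.9% of 21-nt MIR156 reads in dxo1-2 against 26.8% to 41.8% in Col-0, and 22-nt reads over all genes reach 56.7% to 57.6% in dxo1-2dcl4-2.

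On the authors' scale MIR156F was higher in dxo1-2dcl4-2 than in dxo1-2. Its 21-nt reads were 3.07 log2 units higher in dxo1-2dcl4-2 than in dxo1-2 (SE 0.46, limma adjusted p = 0.0001), with means of 137 ± 55 in dxo1-2dcl4-2 and 15.6 ± 5.69 in dxo1-2 (SD, n = 3 each). The log2 difference between dxo1-2dcl4-2 and dcl4-2 was 0.00 (SE 0.46, adjusted p = 1.0). That value depended on the scale: it was -1.01 (adjusted p = 0.287) scaled to the reads of the 21-nt class, and -1.70, a fall that passed (adjusted p = 0.04), scaled to the reads of the 3 classes. Of the 6 MIR156 genes tested against dxo1-2, 1 passed, beside 4.59% of all genes (1.43% as higher). The test of whether dxo1-2 acted differently in the dcl4-2 background than in the wild type, an interaction term, gave 2.73 for MIR156F (SE 0.65, adjusted p = 0.0274), beside 1.56% of all genes that passed it (0.811% as higher). This interaction passed in 5 of 20 alternatives (limma, edgeR or DESeq2 adjusted p 0.000104 to 0.441). Of the 12 fits that left out 1 library, those without dxo1-2dcl4-2 replicate 1 (3.13, limma adjusted p = 0.0115) and without dxo1-2 replicate 3 (2.98, adjusted p = 0.0179) passed, while the other 10 gave 2.44 to 2.88 with limma adjusted p of 0.0508 to 0.0853. Scaled to the summed reads of the 3 classes, the difference between dxo1-2dcl4-2 and dxo1-2 was 1.56 (adjusted p = 0.0516), the highest p of its 20 alternatives (lowest 2.01e-11).

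MIR156A and MIR156C, the main sources of 22-nt MIR156 reads, were both lower in dxo1-2 than in Col-0. MIR156A had 642, 535 and 571 normalized 22-nt reads in dxo1-2dcl4-2, 227, 358 and 443 in dxo1-2, 463, 572 and 381 in dcl4-2, and 733, 574 and 756 in Col-0. All 3 dxo1-2 libraries lay below all 3 of Col-0 and of dxo1-2dcl4-2, and overlapped dcl4-2. MIR156A 22-nt reads fell by 1.05 on the log2 scale in dxo1-2 (SE 0.18, limma adjusted p = 0.000827), with means of 343 ± 109 in dxo1-2 and 688 ± 99.0 in Col-0 (SD, n = 3 each).

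MIR156C had 547, 307 and 395 normalized 22-nt reads in dxo1-2dcl4-2, 223, 364 and 428 in dxo1-2, 554, 580 and 387 in dcl4-2, and 903, 722 and 861 in Col-0. Each library of the 3 mutant lines lay below each library of Col-0. MIR156C 22-nt reads fell by 1.34 in dxo1-2 (SE 0.20, limma adjusted p = 4.58e-05) and by 1.03 in dxo1-2dcl4-2 (SE 0.20, adjusted p = 0.000461), both against Col-0 on the log2 scale. In dcl4-2 the difference from Col-0 was -0.72 (SE 0.20, adjusted p = 0.062), which missed the threshold. Of the 4 MIR156 genes tested at 22 nt, 2 passed in dxo1-2, where 0.282% of all 8498 genes passed (0.177% as lower), and 1 passed in dxo1-2dcl4-2, where 4.72% did (1.94% as lower). Counted with edgeR on the whole reads recovered from the tables, neither fall in dxo1-2 passed, at -0.78 (adjusted p = 0.821) for MIR156A and -1.07 (adjusted p = 0.438) for MIR156C; over 20 alternatives the adjusted p ran from 7.11e-05 to 0.821 for MIR156A, which passed in 18, and from 2.09e-06 to 0.438 for MIR156C, which passed in 19. With edgeR the fall of MIR156C in dxo1-2dcl4-2 did not pass either (-0.93, adjusted p = 0.194), the one of 20 alternatives in which it did not. Scaled to the reads of the 22-nt class this fall was larger, at -3.60 (limma adjusted p = 9.94e-15, the lowest of the alternatives), and the alternatives ran from there to -0.83.

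How MIR156A and MIR156C at 22 nt differed between dxo1-2dcl4-2 and dxo1-2 depended on what the reads were scaled to. On the authors' scale, MIR156A was 0.81 log2 units higher in dxo1-2dcl4-2 than in dxo1-2 (SE 0.18, limma adjusted p = 0.00466), the 1 of 4 MIR156 genes to pass, beside 2.65% of all genes (1.82% as higher). The interaction was 1.37 for MIR156A (SE 0.26, adjusted p = 0.000535) and 1.03 for MIR156C (SE 0.28, adjusted p = 0.0338), the 2 of 4 that passed, beside 2.12% of all genes (1.18% as higher). Scaled instead to the summed reads of the 3 classes, MIR156A was lower by 0.67 in dxo1-2dcl4-2 than in dxo1-2, and the interactions were -0.19 and -0.52; scaled to the reads of the 22-nt class, these 3 values were -2.04, -1.13 and -1.46. Under the same scalings the median of all 22-nt features between dxo1-2dcl4-2 and dxo1-2 was -0.24 on the authors' scale, then -1.16 and -2.08, so that relative to the median feature MIR156A stood 1.05, 0.49 and 0.03 higher. For MIR156C the differences between dxo1-2dcl4-2 and dxo1-2 were 0.31, -1.18 and -2.55 on these 3 scales, so the sign turned with the scale. Relative to the median feature they were 0.55, -0.01 and -0.47. A change of scale moves low rows less than well-covered ones, because 0.5 is added to each value. Values relative to the median therefore drift with the scale for both genes, and give no direction against other genes.

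In reads as counted, MIR156 genes made up 0.158% to 0.185% of the reads of the 3 classes in dxo1-2dcl4-2, 0.174% to 0.381% in dxo1-2, 0.32% to 0.479% in dcl4-2 and 0.452% to 0.681% in Col-0. The libraries of dxo1-2dcl4-2 held more 22-nt reads over all genes than those of any other line, as the shares above give, and the part this played in the scaled values was not tested. Without dxo1-2 replicate 1 the difference of MIR156A between dxo1-2dcl4-2 and dxo1-2 was 0.54 (adjusted p = 0.142), and without dxo1-2dcl4-2 replicate 1 it was 0.74 (adjusted p = 0.0893); it passed in 14 of 20 alternatives (adjusted p 1.79e-09 to 0.44, the lowest in the opposite direction). The interaction of MIR156A passed in the same direction in 17 of 20 alternatives (adjusted p 5.05e-05 to 0.827). That of MIR156C did so in 6 of 20 (adjusted p 0.00169 to 0.711) and, among the fits without 1 library, only without Col-0 replicate 2, dxo1-2dcl4-2 replicate 2, dxo1-2 replicate 2 and dxo1-2 replicate 3, the other 8 giving 0.76 to 1.14 with adjusted p of 0.0606 to 0.25.

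**Figure D3:**
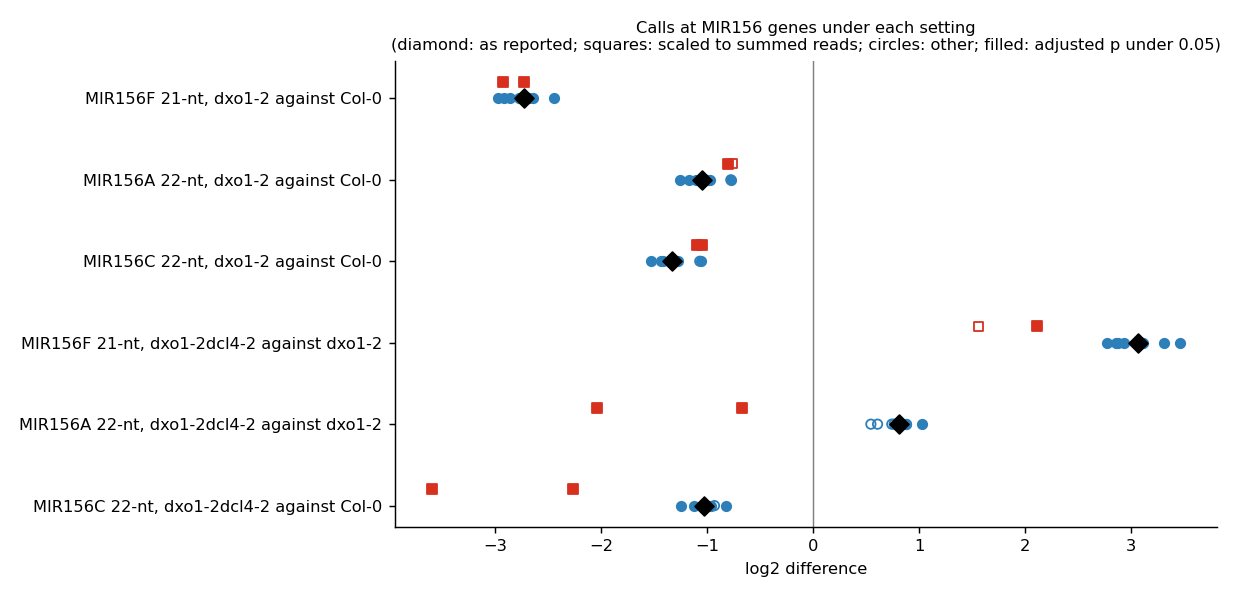
Log2 differences of the MIR156 comparisons between lines that passed, under each setting of the processing. A diamond marks the value as reported, squares mark reads scaled to summed reads and circles the other settings. Filled markers have an adjusted p under 0.05, and the interactions that passed are not drawn. The fall of MIR156F in dxo1-2 stays between -2.98 and -2.44, while the difference of MIR156A between dxo1-2dcl4-2 and dxo1-2 lies at 0.81 as reported and at -0.67 and -2.04 when scaled to summed reads.

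On the authors' scale the remaining MIR156 rows did not pass in any of the 5 comparisons of lines or in the interaction. MIR156A 21-nt reads were 51.9, 69.8 and 86.0 in dxo1-2dcl4-2, 14.3, 30.6 and 37.4 in dxo1-2, 40.4, 26 and 22.8 in dcl4-2, and 75.3, 26.6 and 37.1 in Col-0. MIR156C 21-nt reads were 73.2, 125 and 86.0 in dxo1-2dcl4-2, 19.6, 43.2 and 57.8 in dxo1-2, 34.2, 36.9 and 19.6 in dcl4-2, and 116, 55.3 and 70.3 in Col-0. On the authors' scale both genes had their highest mean 21-nt level in dxo1-2dcl4-2, where all 3 libraries exceeded all 3 of dcl4-2, yet overlapped Col-0. As counted, per 1000000 reads of the 3 classes, that order did not hold: MIR156A had 52.0 to 93.4 in dxo1-2dcl4-2, 37.3 to 111 in dxo1-2, 69.2 to 130.5 in dcl4-2 and 76.7 to 316 in Col-0, and MIR156C had 73.4 to 122 in dxo1-2dcl4-2, 51.1 to 171 in dxo1-2, 59.3 to 138 in dcl4-2 and 159.6 to 489 in Col-0. On the authors' scale the log2 difference from dcl4-2 was 1.22 (SE 0.57, limma adjusted p = 0.304) for MIR156A and 1.65 (SE 0.52, adjusted p = 0.0896) for MIR156C.

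MIR156B was a low row in both classes. It had 25.6, 21.5 and 16.4 normalized 21-nt reads in dxo1-2dcl4-2, 4.51, 1.05 and 5.67 in dxo1-2, 6.21, 5.47 and 8.69 in dcl4-2, and 24.7, 7.9 and 5.86 in Col-0. The libraries of dxo1-2dcl4-2 did not overlap those of dxo1-2, but the difference of 2.55 did not pass (SE 0.85, limma adjusted p = 0.0941). At 22 nt MIR156B had 38.9, 70.4 and 13.9 in dxo1-2dcl4-2, 18.6, 28.9 and 33.5 in dxo1-2, 36.8, 52.9 and 46.8 in dcl4-2, and 19.4, 41.5 and 43.8 in Col-0, where dxo1-2 lay below dcl4-2 and every other pair of lines overlapped.

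MIR156D at 21 nt did not pass in any comparison on the authors' scale. Its means were 72.4 ± 24.2 in dxo1-2dcl4-2, 59.1 ± 20.3 in dxo1-2, 79.5 ± 9.27 in dcl4-2 and 73.3 ± 20.8 in Col-0 (SD, n = 3 each). The difference between dxo1-2 and Col-0 was -0.33 (SE 0.45, limma adjusted p = 0.926). Scaled to the reads of the 3 classes, MIR156D was lower in dxo1-2dcl4-2 by 1.87 than in dcl4-2 (limma adjusted p = 0.0221) and by 1.72 than in Col-0 (adjusted p = 0.0405). MIR156E had 12.1, 47.4 and 21.5 normalized 21-nt reads in dxo1-2dcl4-2, 3.01, 2.11 and 7.18 in dxo1-2, 10.9, 2.74 and 3.26 in dcl4-2, and 5.48, 7.9 and 8.78 in Col-0; on this scale dxo1-2dcl4-2 lay above the other lines in all 3 libraries, though not as reads counted per 1000000 of the 3 classes (12.1 to 46.1 in dxo1-2dcl4-2 and 22.8 to 26.6 in Col-0), and its difference of 2.52 from dxo1-2 did not pass (SE 0.88, adjusted p = 0.112). MIR156F at 22 nt stood at 6.38, 17.6 and 0 in dxo1-2dcl4-2, 1.24, 1.03 and 1.63 in dxo1-2, 1.75, 9.91 and 9.13 in dcl4-2, and 1.94, 9.05 and 2.19 in Col-0, near the 0.976 to 5.82 normalized reads that 3 reads are worth in this class.

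MIR156G and MIR156H were close to undetected. MIR156G had 8 reads at 21 nt over the 3 dxo1-2dcl4-2 libraries, 0 in dxo1-2, 1 in dcl4-2 and 1 in Col-0, and MIR156H had 2, 1, 0 and 2 in the same lines. Both stayed under the mean of 1 normalized read required for testing, so 6 of the 8 MIR156 genes were tested at 21 nt and 4 each at 22 nt and 24 nt. A row without reads allows a level of up to 3 reads, which are worth 1.13 to 4.66 normalized reads at 21 nt depending on the library. Small RNA reads in the rows of SPL9 and SPL15 came to 3 reads at 21 nt, 3 at 22 nt and 6 at 24 nt for SPL9, and 2, 0 and 0 for SPL15, summed over the 12 libraries; whether those in the SPL9 row came from MIR156j was not tested.

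Where no MIR156 gene passed, the counts at an unadjusted limma p under 0.05 were as follows. The shares of all genes beside them are after adjustment, a stricter threshold, so counts and shares cannot be compared. At 21 nt there were 1 in dcl4-2 against Col-0, 3 in dxo1-2dcl4-2 against dcl4-2 and 0 in dxo1-2dcl4-2 against Col-0, where 0.862%, 3.86% and 3.41% of all genes passed after adjustment. At 22 nt there were 2 in dcl4-2 against Col-0 and 0 in dxo1-2dcl4-2 against dcl4-2, beside 1.14% and 5.55% of all genes. In these 5 comparisons edgeR also called 0, and DESeq2 called 0 except for MIR156C, higher at 21 nt in dxo1-2dcl4-2 against dcl4-2. Scaled to summed reads, limma called up to 2 and 1 at 21 nt in dxo1-2dcl4-2 against dcl4-2 and Col-0. At 22 nt it then called up to 2 in dcl4-2 against Col-0 and up to 3 in dxo1-2dcl4-2 against dcl4-2. In the 24-nt class MIR156A to MIR156D were tested on at most 23.2 normalized reads in a library and 0 passed in any comparison, with 1, 0, 1, 2, 0 and 1 at an unadjusted p under 0.05 for dxo1-2 and dcl4-2 each against Col-0, for dxo1-2dcl4-2 against dcl4-2, dxo1-2 and Col-0, and for the interaction; of all 8473 genes, 0.13%, 0.366%, 4.57%, 2.49%, 5.71% and 0.791% passed in the same order. In that class edgeR called 0 throughout, and DESeq2 called 1, MIR156D, higher in dxo1-2dcl4-2 against dxo1-2.

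On the authors' scale, the 6 MIR156 genes tested at 21 nt had a median log2 difference of -0.98 in dxo1-2 against Col-0, beside 0.44 over all genes. In dxo1-2dcl4-2 against dxo1-2 their median was 1.96, beside -0.47 over all genes. At 22 nt the median of the 4 tested was -1.10 and 0.59 in these comparisons, beside 0.17 and -0.24 over all genes. The comparisons share the dxo1-2 libraries. Values of dxo1-2dcl4-2 against dxo1-2 depend on the scale: MIR156F at 21 nt went from 3.07 to 1.56 scaled to the reads of the 3 classes. At 21 nt, 3793 to 5338 genes had reads in a dxo1-2dcl4-2 library and 8260 to 12755 in a dxo1-2 library. Rows without reads therefore enter the medians over all genes.

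MIR157 genes encode a microRNA close in sequence to miR156 that also guides cleavage of SPL mRNAs. The rows of MIR157A and MIR157B were identical in all 12 libraries, so they count as a single measurement. Its 21-nt level was 2322, 2753 and 2734 normalized reads in dxo1-2dcl4-2, 567, 689 and 1179 in dxo1-2, 708, 657 and 656 in dcl4-2, and 1049, 960 and 1007 in Col-0. The dxo1-2dcl4-2 libraries lay above all others. MIR157A rose in dxo1-2dcl4-2 by 1.95 against dcl4-2 (limma adjusted p = 6.84e-08), by 1.75 against dxo1-2 (6.79e-07) and by 1.37 against Col-0 (1.58e-05). Scaled to the summed reads of the 3 classes, these differences were 0.24 (adjusted p = 0.682), 0.22 (0.597) and -0.34 (0.495). Scaled to the reads of the 21-nt class they were 0.93 (adjusted p = 0.00275), 0.78 (0.013) and 0.42 (0.284). Among the 4 MIR157 genes, MIR157A and MIR157B, that single measurement, were the ones that passed in each of these comparisons, beside 3.86%, 4.59% and 3.41% of all genes. In dxo1-2 alone the difference of MIR157A from Col-0 was -0.38 (SE 0.18, adjusted p = 0.524).

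MIR172 genes encode the microRNA that rises as miR156 declines and that acts on AP2-like mRNAs; their rows are given here because of their low values in dxo1-2dcl4-2 and were chosen after these were seen. MIR172B had 0, 25.9 and 0 normalized 21-nt reads in dxo1-2dcl4-2, 8.28, 35.8 and 87.7 in dxo1-2, 45.0, 99.9 and 32.6 in dcl4-2, and 79.4, 51.0 and 44.9 in Col-0. In dxo1-2dcl4-2, 2 of 3 libraries had no read, and each lay below every library of dcl4-2 and Col-0. MIR172A and MIR172B were the 2 of 5 MIR172 genes that passed as lower in dxo1-2dcl4-2 against Col-0 (adjusted p = 0.0106 and 0.00925), where 3.41% of all genes passed in either direction; edgeR on recovered reads also called MIR172B (adjusted p = 0.00038), and DESeq2 did not (adjusted p = 0.248). MIR172A and MIR172B held values above 0 that were equal in 2 libraries, so their reads may be shared.

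Most mRNAs differed between the mutant lines and Col-0, which is the background for the calls on the target mRNAs. In dxo1-1, 75.6% of the 18378 genes tested passed (49.6% higher, 26.0% lower), and in dxo1-2, 73.0% did (51.8% higher, 21.2% lower). The median of all genes was 0.21 above Col-0 in dxo1-1 and 0.25 above in dxo1-2 on the log2 scale. Centring each library on its median shifted every log2 difference by -0.31 in dxo1-1 and -0.35 in dxo1-2, and the split turned to 34.4% higher and 43.5% lower in dxo1-1 and to 32.3% higher and 42.5% lower in dxo1-2.

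Both target mRNAs were low in leaves, and they differed from Col-0 to different degrees. SPL9, which promotes adult leaf traits and restrains leaf initiation, had 3.31, 4.54 and 3.86 FPKM in libraries labelled dxo1-1, 3.27, 2.94 and 3.09 in dxo1-2, and 4.38, 4.07 and 3.45 in Col-0. The dxo1-2 libraries lay below those of Col-0, while those of dxo1-1 overlapped Col-0. SPL9 fell by 0.27 in dxo1-2 on the log2(FPKM + 1) scale (SE 0.11, limma adjusted p = 0.0498), and its difference in dxo1-1 was -0.02 (SE 0.11, adjusted p = 0.872). The call in dxo1-2 was marginal: it was lost when Col-0 replicate 1 or 2, dxo1-1 replicate 3, or any of the 3 dxo1-2 libraries was left out, with values of -0.30 to -0.21 and adjusted p of 0.0619 to 0.16. It passed in 8 of 16 alternatives, with adjusted p of 0.000638 to 0.16. The direct difference between dxo1-2 and dxo1-1 was -0.25 (adjusted p = 0.108), where 38.1% of all genes passed.

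SPL15, which acts in the shoot apex in flowering, had 0.64, 0.34 and 0.24 FPKM in libraries labelled dxo1-1, 0.46, 0.49 and 0.64 in dxo1-2, and 1.4, 0.96 and 1.32 in Col-0. Every mutant library lay below every Col-0 library, and the mutant lines overlapped each other. Its mean over the 9 libraries, 0.721 FPKM, was under the mean of 1 FPKM required for testing, so its differences of -0.67 in dxo1-1 and -0.54 in dxo1-2 are given without a test. Fitted with no filter on low values, they had limma adjusted p-values of 0.000901 (SE 0.12) and 0.00351 (SE 0.12), beside 62.0% and 58.6% of all 24218 genes that passed in those fits. With a pseudocount of 0.1 the differences were -1.45 and -1.07, since the added 1 FPKM compresses changes of low mRNAs. With each library centred on its median, SPL9 was lower by 0.33 in dxo1-1 (limma adjusted p = 0.0229, with 0.0229 to 0.978 over its 16 alternatives) and by 0.63 in dxo1-2 (adjusted p = 0.000638), and SPL15 was lower by 0.98 and 0.89. AT3G57910, the gene that overlaps SPL15, rose by 0.39 in dxo1-1 (limma adjusted p = 0.00254) and by 0.62 in dxo1-2 (adjusted p = 9.86e-05), uncentred. Whether its reads entered the SPL15 row was not tested.

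MIR156C was the sole MIR156 gene listed above 0 in the mRNA table, and its row there, a gene model of 857 bases, rose in both mutant lines. It had 4.02, 3.85 and 2.62 FPKM in libraries labelled dxo1-1, 1.6, 2.82 and 3.12 in dxo1-2, and 0.69, 0.47 and 0.87 in Col-0. All 6 mutant libraries lay above all 3 of Col-0. The row was 1.42 log2 units higher in dxo1-1 (SE 0.19, limma adjusted p = 4.09e-05) and 1.05 higher in dxo1-2 (SE 0.19, adjusted p = 0.00047), and stayed higher on the centred scale by 1.10 and 0.69; both passed in all 16 alternatives. The neighbouring gene AT4G31875 rose more, to 36.04, 39.2 and 41.67 FPKM in dxo1-1 and 37.83, 35.77 and 45.44 in dxo1-2, against 6.92, 4.46 and 6.57 in Col-0, which is 2.53 (adjusted p = 1.38e-08) and 2.55 (1.6e-08) on the log2 scale. Strand-specific counting by the authors is not stated in the sources used here, and whether reads of the neighbour entered the MIR156C row was not tested. The other 7 MIR156 rows, with models of 80 to 106 bases, were listed at 0 in all 9 libraries.

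**Figure D4:**
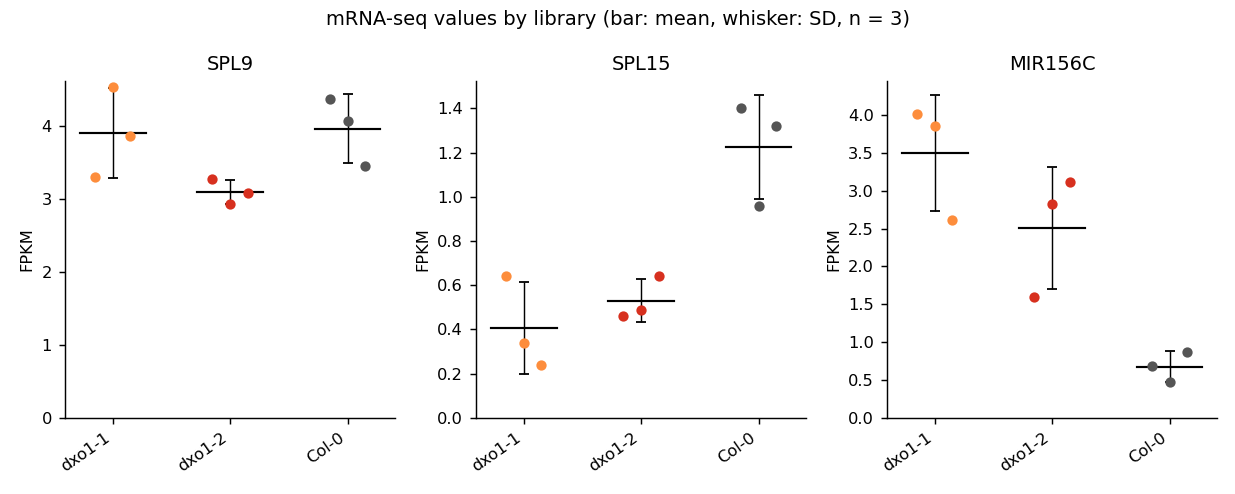
FPKM of SPL9, SPL15 and the MIR156C gene model per mRNA library, with 1 point per library, a bar at the mean of 3 and a whisker of 1 SD, for dxo1-1, dxo1-2 and Col-0 from left to right. SPL15 lies at 0.24 to 0.64 FPKM in the mutant libraries and at 0.96 to 1.4 FPKM in Col-0, MIR156C at 1.6 to 4.02 FPKM in the mutant libraries and at 0.47 to 0.87 FPKM in Col-0, and SPL9 of dxo1-1 overlaps Col-0.

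The other 9 SPL genes with a miR156 site moved in both directions. In dxo1-1, 4 rose, 2 fell and 3 did not pass (median -0.05), beside 49.6% higher and 26.0% lower over all genes. In dxo1-2, 2 rose, 1 fell and 6 did not pass (median 0.06), beside 51.8% higher and 21.2% lower over all genes. On the centred scale the counts were 3, 5 and 1 in dxo1-1, and 1, 5 and 3 in dxo1-2. Centred shares of all genes were 34.4% higher and 43.5% lower in dxo1-1, and 32.3% and 42.5% in dxo1-2. SPL5, a small SPL protein that promotes flowering, had 5.45, 6.22 and 7.71 FPKM in libraries labelled dxo1-1, 6.3, 6.46 and 7.71 in dxo1-2, and 3.39, 4.22 and 3.41 in Col-0. All mutant libraries lay above Col-0, by 0.67 (SE 0.12, limma adjusted p = 0.000501) and 0.74 (SE 0.12, adjusted p = 0.000243) on the log2 scale, and SPL5 passed in all 16 alternatives in both lines, with 0.36 and 0.39 on the centred scale. SPL2 had 7.27, 8.4 and 9.26 FPKM in dxo1-1, 7.64, 8.84 and 8.92 in dxo1-2, and 10.23, 11.61 and 13 in Col-0, and fell by 0.44 (adjusted p = 0.00287) and 0.41 (adjusted p = 0.0045). No mutant library of SPL2 reached the lowest Col-0 library.

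SPL13A had 17.97, 18.01 and 15.65 FPKM in libraries labelled dxo1-1, 9.29, 10.46 and 12.5 in dxo1-2, and 8.83, 10.55 and 9.83 in Col-0. Only dxo1-1 stood apart among these lines, by 0.76 (limma adjusted p = 4.53e-05), and dxo1-2 was lower than dxo1-1 by 0.64 (adjusted p = 0.00081). SPL13B, a near-identical copy, had 13.23, 12.34 and 11.54 FPKM in dxo1-1, 17.37, 15.22 and 13.06 in dxo1-2, and 12.86, 15.42 and 13.57 in Col-0, and how reads were split between the copies is uncertain. SPL11 rose by 0.58 in dxo1-1 and by 0.31 in dxo1-2, where it turned to -0.045 on the centred scale. SPL4 fell by 0.55 in dxo1-1 (adjusted p = 0.0112), with 4.1, 6.33 and 7.15 FPKM against 7.71, 9.69 and 9.22 in Col-0.

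The 6 SPL genes without a miR156 site gave 3 higher, 2 lower and 1 not passing in dxo1-1 (median 0.23). They gave 4 higher, 2 lower and 0 not passing in dxo1-2 (median 0.33). The all-gene medians were 0.21 and 0.25, with 49.6% higher and 26.0% lower in dxo1-1, and 51.8% and 21.2% in dxo1-2. Centred, the counts were 2, 3 and 1 in dxo1-1, and 1, 2 and 3 in dxo1-2. Centred shares of all genes were 34.4% higher and 43.5% lower in dxo1-1, and 32.3% and 42.5% in dxo1-2. SPL12 had 18.74, 19.1 and 18.81 FPKM in libraries labelled dxo1-1, 24.97, 21.68 and 22.47 in dxo1-2, and 37.88, 40 and 35.36 in Col-0, with no overlap between the 3 lines. It fell by 0.96 (SE 0.07, limma adjusted p = 1.07e-07) and by 0.69 (SE 0.07, adjusted p = 2.18e-06). SPL14 rose by 0.52 and 0.69 (0.21 and 0.34 centred), and SPL7, a regulator of the copper response, by 0.52 and 0.48, with SPL7 in dxo1-2 not passing on the centred scale (0.13, adjusted p = 0.163, with 0.000118 to 0.163 over its 16 alternatives). SPL8 rose by 0.35 and 0.44 and passed in neither line on the centred scale.

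**Figure D5:**
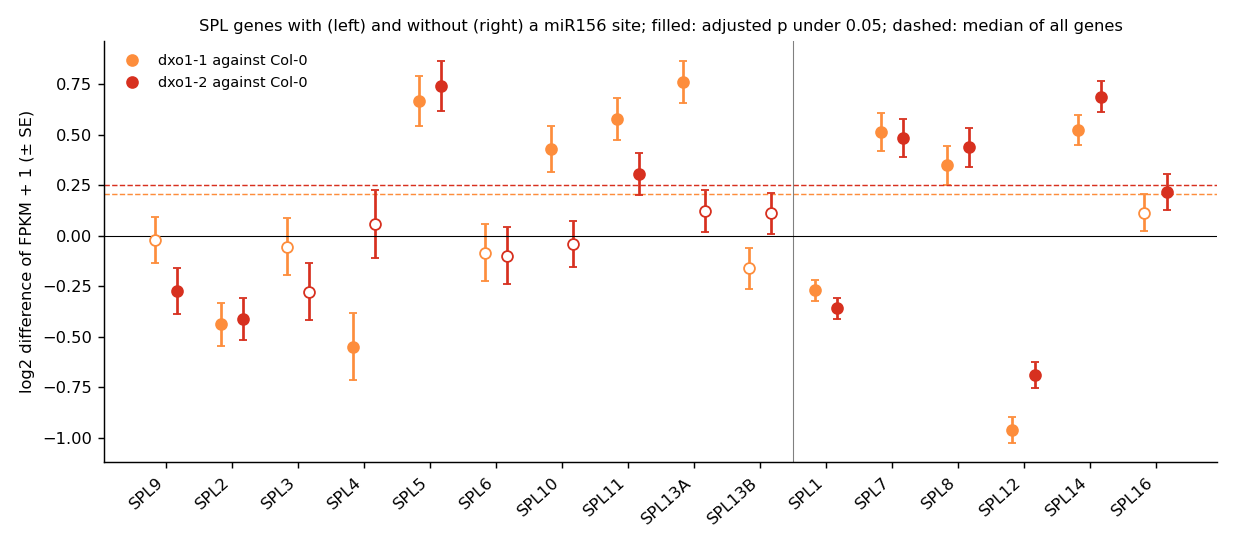
Log2 differences of SPL mRNAs with their SE for dxo1-1 and dxo1-2 against Col-0, genes with a miR156 site (SPL9 and 9 others) left of the dividing line and 6 genes without one right of it; filled markers have a limma adjusted p under 0.05 and the dashed lines mark the median of all genes, 0.21 and 0.25. SPL5 lies above and SPL2 below zero in both lines among genes with a site, and SPL12 has the lowest values, -0.96 and -0.69, among those without; SPL15 is under the filter and is not drawn.

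AP2-like factors, targets of miR172 that delay the adult phase, moved in both directions. Of 6, 1 rose and 4 fell in dxo1-1, and 1 rose and 2 fell in dxo1-2, with 1 and 3 not passing. Over all genes, 49.6% rose and 26.0% fell in dxo1-1, and 51.8% rose and 21.2% fell in dxo1-2. Centred, 1 rose and 4 fell in dxo1-1, beside 34.4% and 43.5% of all genes. In dxo1-2, centred, 1 rose and 5 fell, beside 32.3% and 42.5% of all genes. AP2, the floral homeotic factor, had 14.47, 16.6 and 18.39 FPKM in libraries labelled dxo1-1, 14.79, 15.92 and 14.8 in dxo1-2, and 5.75, 6.65 and 5.42 in Col-0. It rose by 1.33 (SE 0.09, limma adjusted p = 1.56e-07) and 1.22 (SE 0.09, adjusted p = 3.84e-07). TOE1, a repressor of flowering, had 35.01, 35.73 and 35.51 FPKM in dxo1-1, 34.76, 34.26 and 35.99 in dxo1-2, and 49.99, 57.38 and 53.65 in Col-0, and fell by 0.58 and 0.60. SNZ, another such repressor, fell by 0.67 and 0.63, and TOE3 fell by 0.51 in dxo1-1, with -0.25 in dxo1-2 (adjusted p = 0.0545).

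Of 11 genes known to act downstream of SPL9 or SPL15, 8 were tested. In each mutant line 5 rose, 2 fell and 1 did not pass (median 0.34 in both). Over all genes, 49.6% rose and 26.0% fell in dxo1-1, and 51.8% rose and 21.2% fell in dxo1-2. Centred, 3 rose and 3 fell in dxo1-1, beside 34.4% and 43.5% of all genes. In dxo1-2, centred, 3 rose and 2 fell, beside 32.3% and 42.5% of all genes. AP1, LFY and AGL42, floral regulators, were the 3 under the filter, at no more than 0.38 FPKM. TCL1, a repressor of trichome formation that SPL9 activates, had 0.61, 1.0 and 1.37 FPKM in libraries labelled dxo1-1, 0.58, 0.91 and 1.2 in dxo1-2, and 8.03, 7.23 and 3.36 in Col-0. It fell by 1.80 (SE 0.26, limma adjusted p = 6.4e-05) and by 1.87 (SE 0.26, adjusted p = 5.26e-05), and no mutant library reached any of Col-0. Among the anthocyanin genes, which SPL9 restrains, DFR had 41.37, 39.39 and 44.75 FPKM in dxo1-1, 42.49, 42.05 and 46.06 in dxo1-2, and 24.66, 27.84 and 27.25 in Col-0, and rose by 0.63 and 0.69 (0.32 and 0.34 centred). F3'H rose by 0.69 and 0.66 (0.37 and 0.30 centred), and UGT75C1 by 0.40 and 0.96, the 0.40 of dxo1-1 being 0.09 on the centred scale (adjusted p = 0.507, with 0.00337 to 0.507 over its 16 alternatives). ANS, the next enzyme of that pathway, had 16.97, 14.08 and 14.86 FPKM in dxo1-1, 23.23, 22.84 and 19.7 in dxo1-2, and 20.62, 18.35 and 18.91 in Col-0, so the pathway did not move as a block. FUL, a flowering gene that SPL factors activate, had 2.68, 2.34 and 2.69 FPKM in dxo1-1, 1.87, 1.62 and 1.93 in dxo1-2, and 0.73, 1.33 and 1.17 in Col-0, above Col-0 in every mutant library. SOC1, a floral integrator, had 50.95, 46.28 and 48.3 FPKM in dxo1-1, 44.16, 50.69 and 46.89 in dxo1-2, and 37.27, 41.71 and 40.58 in Col-0.

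Among 8 regulators of MIR156 genes, 2 rose and 4 fell in dxo1-1, and 2 rose and 3 fell in dxo1-2. Over all genes, 49.6% rose and 26.0% fell in dxo1-1, and 51.8% rose and 21.2% fell in dxo1-2. Centred, 1 rose and 5 fell in dxo1-1, beside 34.4% and 43.5% of all genes. In dxo1-2, centred, 1 rose and 6 fell, beside 32.3% and 42.5% of all genes. VAL1 and VAL2 are repressors that bind MIR156 loci, and they moved in opposite directions, VAL1 by -0.38 and -0.31 and VAL2 by 0.39 and 0.52, though VAL2 in dxo1-1 was 0.08 on the centred scale and did not pass. PKL, a chromatin remodeller, fell by 0.40 and 0.27. HXK1, the glucose sensor, rose by 0.60 and 0.39, but its change in dxo1-2 was 0.04 on the centred scale and -0.0062 after quantile normalization.

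Of 10 genes of microRNA biogenesis and action, 5 rose and 0 fell in dxo1-1, and 7 rose and 0 fell in dxo1-2. Over all genes, 49.6% rose and 26.0% fell in dxo1-1, and 51.8% rose and 21.2% fell in dxo1-2. Centred, 2 of the group rose and 5 fell in dxo1-1, and 1 rose and 3 fell in dxo1-2. Centred shares of all genes were 34.4% higher and 43.5% lower in dxo1-1, and 32.3% and 42.5% in dxo1-2. The direction of this group thus depends on the scale, as does that of all genes. SE, a zinc-finger partner of DCL1, had 29.76, 28.76 and 32.52 FPKM in libraries labelled dxo1-1, 30.7, 31.45 and 35.23 in dxo1-2, and 17.64, 19.21 and 16.0 in Col-0. It rose by 0.75 (SE 0.08, limma adjusted p = 4.64e-06) and 0.85 (SE 0.08, adjusted p = 1.96e-06), and it stayed higher on the centred scale. CPL1, a phosphatase that acts on the DCL1 partner HYL1, rose by 0.66 and 0.53, the 0.53 of dxo1-2 being 0.17 on the centred scale, where it did not pass (limma adjusted p = 0.0637). DCL1 rose by 0.34 and 0.25, values that became 0.03 and -0.10 after centring.

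Beside the lists, the genes whose levels ran most like those of the members were sought across libraries. For SPL15, the 3 highest Pearson correlations over 9 libraries, among 14158 genes averaging 5 FPKM or more, were those of AT5G53880 (0.975), CKS1 (0.960) and AT5G20670 (0.957). CKS1, a cell cycle protein that binds cyclin-dependent kinases, had 42.25 to 45.56 FPKM in libraries labelled dxo1-1, 47.96 to 49.86 in dxo1-2 and 68.63 to 83.36 in Col-0, so both mutant lines lay below Col-0. For SPL9 they were JAZ8 (0.925), CYP710A2 (0.909) and AT5G55896 (0.890). For MIR156F at 21 nt, over 12 libraries and 107 other microRNA genes, they were MIR162b (0.920), MIR166a (0.916) and MIR827 (0.885). MIR827, a microRNA of phosphate homeostasis, had 568, 713 and 476 normalized reads in dxo1-2dcl4-2, 72.2, 91.7 and 298 in dxo1-2, 449, 648 and 386 in dcl4-2, and 760, 500 and 575 in Col-0, with dxo1-2 lowest as for MIR156F. These correlations run over libraries that share their lines and their depth, and are given as descriptions.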

How the data were processed

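Small RNA values are signal: reads per gene of 21, 22 and 24 nt that the authors normalized and deposited; per the submitters' processing notes Bowtie and the TAIR10 build were used. mRNA values are FPKM deposited by the authors; the same notes name TopHat2 2.1.0 and RSEM 2.1.30. Their order, settings and use of strand, and how reads with several matches were treated, are not stated in the sources used here. Dividing by the smallest step in each library gave whole reads for 100.0% of values above 0 (within 0.001 reads). The 3 classes held 173804 to 1403794 reads per library, which is part of a library and not its full depth.

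An edgeR count test had been planned if the tables held counts. As they held normalized values, limma 3.58.1 (R 4.3.3) was fitted across all genes on log2(FPKM + 1) or log2(normalized reads + 0.5), for genes with a mean of at least 1, with Benjamini-Hochberg adjustment and a threshold of 0.05; edgeR 4.0.16 and DESeq2 1.42.0 on recovered reads were alternatives. The interaction is the dxo1-2 effect in dcl4-2 minus that in the wild type. The limma fit was tried on simulated data with equal depths, for dxo1-1 against Col-0 in mRNA and dxo1-2 against Col-0 in small RNA. No other comparison and no interaction was tried that way. Exact Clopper-Pearson 95% intervals and the floor of 3 reads cover counting error only. Other alternatives were pseudocounts, filters, library scalings, a replicate block and leaving out each library. Members and lists were chosen with earlier results of these data known; from each list at most 4 genes were named by largest mean absolute log2 change, and 3 by likeness. SPL4, SPL13B, FUL, SOC1, ANS, the MIR157 and MIR172 rows, AT4G31875 and AT3G57910 were named outside that rule after their values were seen. Unmapped value columns numbered 0.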

Additional observations from a re-analysis of the deposited data

Results flagged for a closer look

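In 3 results the effect of dxo1-2 differed between the dcl4-2 background and the wild type by the interaction test in limma. For MIR156F at 21 nt the difference of effects was 2.73 (adjusted p = 0.0274). On the authors' scale the log2 difference between dxo1-2dcl4-2 and dcl4-2 was 0.00 (SE 0.46), and dxo1-2 lay 2.73 below Col-0. That 0.00 became -1.01 (limma adjusted p = 0.287) scaled to the reads of the 21-nt class. Scaled to the reads of the 3 classes it became -1.70 (limma adjusted p = 0.04). For MIR156A at 22 nt the difference of effects was 1.37 (adjusted p = 0.000535), from 0.32 in the dcl4-2 background and -1.05 in the wild type. For MIR156C at 22 nt it was 1.03 (adjusted p = 0.0338), from -0.30 in the dcl4-2 background and -1.34 in the wild type. Both 22-nt differences turned sign when reads were scaled to summed reads. Of 20 alternatives, the interaction of MIR156F passed in 5, that of MIR156A in 17 and that of MIR156C in 6, each in the direction given.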

How the results depend on the processing

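SPL9 in dxo1-1 passed at -0.33 with libraries centred on their median and did not otherwise. SPL9 mRNA, dxo1-2 against Col-0, kept its -0.27 but did not pass with no filter on low values (limma adjusted p = 0.0678). SPL15 moved to -1.45 in dxo1-1, -1.07 in dxo1-2 and 0.38 between dxo1-2 and dxo1-1 with a pseudocount of 0.1, and, centred, to -0.98 for SPL15 mRNA, dxo1-1 against Col-0, and -0.89 for SPL15 mRNA, dxo1-2 against Col-0; its quantile, replicate-block, 2-group and no-trend fits were not run, since it is under the filter. Leaving out each library in turn gave -0.11 to 0.068 for SPL9 in dxo1-1, turning sign without Col-0 replicate 1 (0.038) and without dxo1-1 replicate 1 (0.068), and -0.35 to -0.21 in dxo1-2.

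The number of MIR156 genes called at 21 nt, where 0 passed between dxo1-2dcl4-2 and dcl4-2, was 1 with a mean of at least 5, 2 scaled to the 3 classes and 1 with DESeq2. Between dxo1-2dcl4-2 and dxo1-2, where 1 passed, it was 4, 0 and 2 under the same settings. Between dxo1-2dcl4-2 and Col-0, where 0 passed, it was 1 scaled to the 3 classes. For the interaction, where 1 passed, it was 0 with a pseudocount of 0.1, no filter, either scaling or edgeR, 2 with a mean of at least 5 and 2 with DESeq2. At 22 nt, dxo1-2 against Col-0 (2 passed) gave 1 scaled to the size class and 0 with edgeR, and dcl4-2 against Col-0 (0 passed) gave 1 with no filter and 2 scaled to the size class. Scaled to the size class and to the 3 classes, dxo1-2dcl4-2 gave 3 and 2 against dcl4-2 (0 passed), 3 and 2 against dxo1-2 (1 passed), and 3 and 2 against Col-0 (1 passed); edgeR gave 0 against dxo1-2 and Col-0, and DESeq2 gave 0 against dxo1-2. The 22-nt interaction (2 passed) gave 1 with a pseudocount of 0.1, 1 with a mean of at least 5, 0 scaled to the 3 classes, 0 with edgeR and 1 with DESeq2. At 24 nt, dxo1-2dcl4-2 against dxo1-2 (0 passed) gave 1 with DESeq2. Leaving out 1 library gave 0 to 1 for the 21-nt interaction, 0 to 1 at 22 nt for dcl4-2 against Col-0 and for dxo1-2dcl4-2 against dxo1-2, 1 to 2 for the 22-nt interaction, and 0 to 1 at 24 nt for dxo1-2dcl4-2 against dcl4-2.

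Scaled to the size class and to the 3 classes, signs turned at 22 nt for MIR156A between dxo1-2dcl4-2 and dxo1-2 (-2.04 and -0.67), for its interaction (-1.13 and -0.19) and for the interaction of MIR156C (-1.46 and -0.52); the cause was not tested. In dxo1-2, centring turned SPL11 to -0.045 and DCL1 to -0.10, and quantile normalization turned DCL1 to -0.033 and HXK1 to -0.0062. Quantile normalization also turned RCA to 0.21 in dxo1-1 and left RBCS1A at 0.00 in both mutant lines.

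Replicate numbers carried no pairing: 0 of 9 same-numbered mRNA pairs and 0 of 18 pairs in each small RNA class had a correlation of deviations over 0.1. With the replicate block SPL9 mRNA, dxo1-2 against Col-0, stayed at -0.27 (limma adjusted p = 0.0673), the numbers of MIR156 genes called did not move, and at 21 nt in dxo1-2 against Col-0 42 genes passed as higher and 14 as lower, against 59 and 15 without it. Depth limits the low rows: a library held 833 to 3402 MIR156 reads in all, and MIR156G and MIR156H could not be tested.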
